A study of Mus musculus with 15 samples.

Results

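Ryr2 encodes a ryanodine receptor, a channel that lets calcium out of the endoplasmic reticulum. It is described here in type II alveolar epithelial cells (AT2 cells), which make the lung's surfactant. It was taken as the row that carries the symbol Ryr2 in the deposited expression table, 1 of 323 gene symbols with measured values, and it has 1 value in each of 15 arrays. The gene was chosen by its measured values: they were known to be lower in both resolving groups than in control. Its differences from control are therefore a description, and no test of them is given.

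Ryanodine receptors are tetrameric channels that release stored calcium into the cytosol, and they open in response to a rise of cytosolic calcium itself. The form encoded by Ryr2 is best known from heart muscle, where it releases the calcium that starts each contraction. Inositol trisphosphate receptors are the other large family of release channels in the same membrane. In AT2 cells a rise of cytosolic calcium promotes the fusion of lamellar bodies, the storage organelles of surfactant, with the cell surface.

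The study compared AT2 cells of control lungs with AT2 cells of lungs recovering from injury, either with regulatory T cells (Tregs) present or after their depletion, with 5 arrays in each group. Control cells came from C57BL/6 mice, resolving cells with Tregs present from Foxp3EGFP mice, whose Tregs carry green fluorescent protein, and resolving cells with Tregs depleted from Foxp3DTR mice. The latter express the human diphtheria toxin receptor from the Foxp3 locus, so that diphtheria toxin kills their Tregs. All mice were 8 to 12 weeks old and had a C57BL/6 background. Injury was produced with Escherichia coli lipopolysaccharide (LPS) at 3 mg/kg given into the trachea, and lungs were taken at day 7. The treatment text names all 3 strains as recipients of LPS although one group is called control, and it does not state whether Foxp3EGFP mice also received toxin. Strain changed with the group in every comparison, so strain, injury and toxin cannot be told apart from each other here. A further description line names Tregs as the cells profiled, from lung or, on 3 arrays of the Treg-depleted group, from spleen. Nothing in the labels ties each array to its own mouse, so the spread between arrays may be technical.

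AT2 cells had been sorted as CD326+ MHCII+ CD104- CD24- T1a- cells after CD31+ and CD45+ cells were depleted. Only 324 rows of the deposited table hold measurements, and the later rows are straight lines by row number and were not used. The label could not be checked against expression, since 0 of 12 AT2 markers had a measured value, and for the same reason the pairing of gene names with values was taken as deposited. The same held for 12 markers of the cardiac muscle around pulmonary veins, 8 of smooth muscle, 7 of neuroendocrine cells, 6 of endothelium, 6 of AT1 cells and 6 of fibroblasts. Of 10 leukocyte genes, Lcp2 and Nckap1l were measured. Array medians over the 324 measured rows lay between 2.25 and 2.39 on the log2 scale, and the 173 of 323 symbols that exceeded this median on 5 or more arrays were tested. The targeted gene Foxp3 was not analysed here.

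The Ryr2 row bears the transcript name AF295105, the array's identifier 17290457 and the Entrez gene number 20191, and the file describes it as the cardiac ryanodine receptor. The RefSeq gene table for GRCm38.p6 lists this gene as protein coding with 21 transcripts, and AF295105 is not among their names. It was the only row of the table's 31351 with this symbol. Which part of the gene its probes cover is not given in the sources used here. In the RefSeq table the nearest protein-coding genes on either side are Chrm3, which encodes a muscarinic receptor, and Mtr, which encodes methionine synthase, and neither was measured.

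Ryr2 was highest in control AT2 cells and lower in both groups of resolving cells. In control replicates 1 to 5 its log2 value was 4.43, 3.85, 4.46, 3.52 and 4.51. With Tregs present it was 2.89, 3.15, 2.90, 3.11 and 3.21, and with Tregs depleted it was 3.01, 3.30, 3.30, 3.19 and 3.25. Every control array stood above every resolving array, and the lowest control value exceeded the highest resolving value by 0.23. The resolving groups overlapped each other, between 2.89 and 3.30. In cells sorted in bulk, fewer Ryr2-expressing cells and less Ryr2 RNA per cell cannot be told apart.

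**Figure D1:**
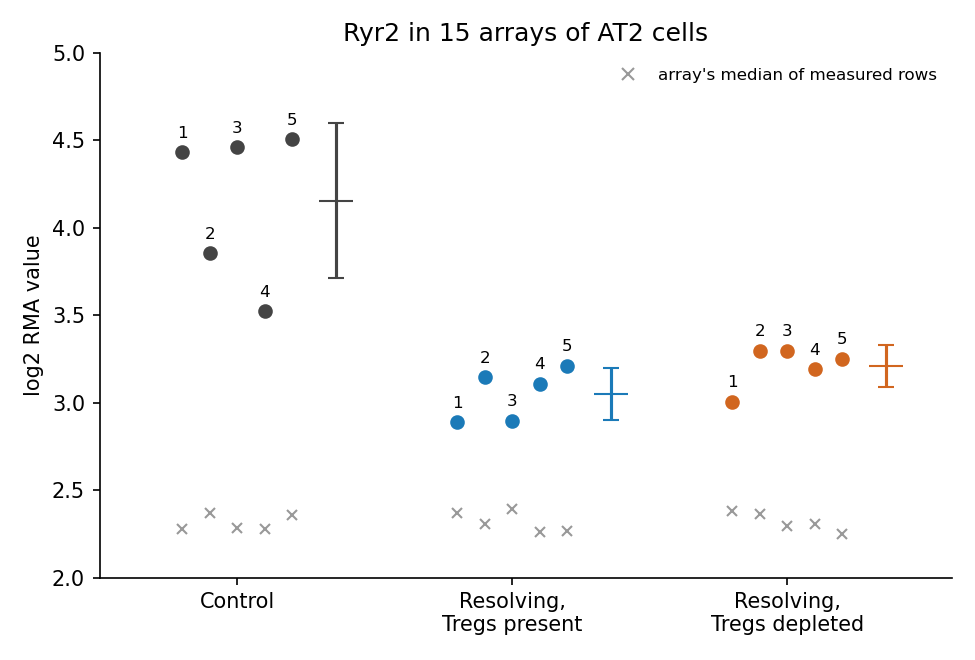
Ryr2 log2 value (vertical axis) in each array, with points numbered by replicate, bars for the group mean ± SD (n = 5) and crosses for the median of the 324 measured rows on that array. Control arrays lie between 3.52 and 4.51 and resolving arrays between 2.89 and 3.30, all above their array's median.

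The group means on the log2 scale were 4.16 ± 0.44 (SD, n = 5) in control, 3.21 ± 0.12 in the Treg-depleted group and 3.05 ± 0.15 in the group with Tregs. The level with Tregs present was 1.11 log2 units below control, which corresponds to 46.5% of the control level on the linear scale, or 2.15-fold lower. The level with Tregs depleted was 0.95 log2 units below control, which corresponds to 51.9%, or 1.93-fold lower. Both differences share the same 5 control arrays.

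Among the 173 tested genes the Ryr2 difference was the eighth lowest with Tregs present and the ninth lowest with Tregs depleted. For comparison, the limma model called 16.2% of these genes changed with Tregs present against control, 13.3% as lower and 2.89% as higher. With Tregs depleted the shares were 11%, 8.09% and 2.89%. These shares depend on the scaling. With Tregs present, 23 genes were called lower and 5 higher as deposited, 13 and 14 after quantile normalization, and 12 and 111 after the arrays were centred on the median of the 46 brighter genes (those tested with a mean above 4), a scaling that raises every change by 0.58 log2 units. With Tregs depleted the counts were 14 and 5 as deposited, 12 and 7 after quantile normalization, and 9 and 19 after that centring, which raises every change by 0.33. Tested genes lower than control without overlap made up 7.51% in either comparison, and those whose control arrays all stood above all 10 resolving arrays made up 5.2%, or 9 genes. Ryr2 was one of these 9, and since it had been chosen for this contrast nothing is read from it. The others were Lpin2, Klf11, 4930466F19Rik, D130062J21Rik, Gm10590, Gm10914, Gm19439 and Gm20066.

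**Figure D2:**
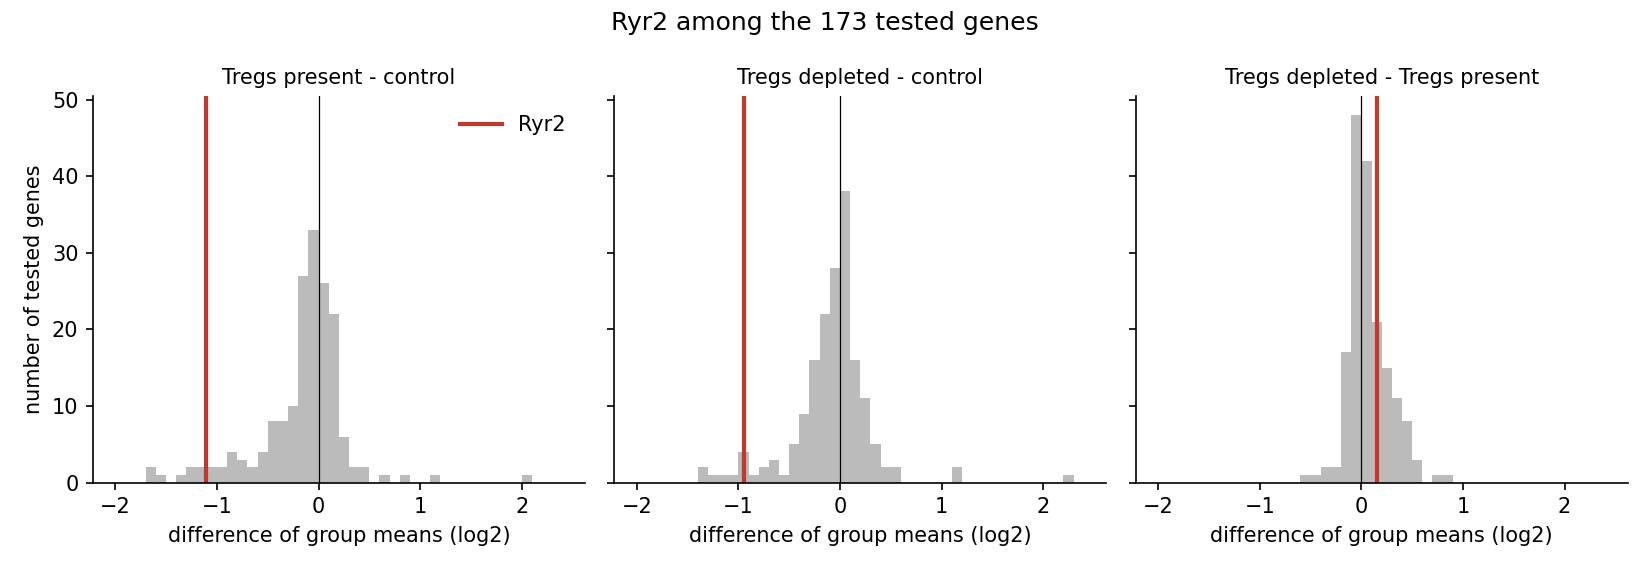
Differences of group means on the log2 scale (horizontal axis) for the 173 tested genes, as counts of genes in bins of 0.1 (vertical axis), in 3 comparisons, with Ryr2 as a red line. Ryr2 lies in the lower tail against control, at -1.11 and -0.95, and near the centre between the resolving groups, at 0.16.

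The comparison of the resolving groups sets the level of Ryr2 in recovering AT2 cells after Treg depletion against that with Tregs present. Strain, and possibly toxin, also differed between these groups, so the effect of depletion alone was not tested. The spread behind the interval may be technical. The mean was 0.16 log2 units higher in the Treg-depleted group, with a 95% interval of -0.20 to 0.52. This did not pass the limma test across the 173 genes (adjusted p = 0.885), and of the 25 pairs of a depleted and a present array the depleted one was lower in 4. The width of the interval rests on a spread estimated over all 3 groups together, including the control arrays, which are not compared here. The SD of Ryr2 was 0.44 in control, 0.15 with Tregs present and 0.12 with Tregs depleted. The interval includes differences larger than either resolving group's SD in both directions. An interval from the 2 resolving groups alone is not given. In the same fit 0% of tested genes were called, and 8.09% had an unadjusted p under 0.05. The sign of the Ryr2 difference turned, to -0.088, when arrays were centred on the brighter genes.

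As deposited, the spread of Ryr2 was widest in control, a difference that was not tested and that was smaller after centring on the brighter genes (below). Its control SD of 0.44 was the 16th highest of 173 tested genes, whose median control SD was 0.20. With Tregs present its SD of 0.15 ranked 102nd, and with Tregs depleted its SD of 0.12 ranked 131st, both below the median gene's. The resolving values stood between 0.51 and 1.00 log2 units above their array's median and the control values between 1.24 and 2.18 above it.

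Control replicates 2 and 4 were the low ones for Ryr2, and both were also low in the brighter genes. Over the 46 tested genes with a mean above 4, to which Ryr2 does not belong, the median value was 5.77 in control replicate 1, 5.47 in replicate 2, 5.74 in replicate 3, 5.20 in replicate 4 and 5.77 in replicate 5. This median ran from 4.81 to 5.26 with Tregs present and from 5.03 to 5.53 with Tregs depleted. In both resolving groups replicate 1 was among the lowest arrays on Ryr2 and on this median. The group mean of this median was lower than in control by 0.58 log2 units with Tregs present and by 0.33 with Tregs depleted, so the brighter measured genes were, at their median, lower alongside Ryr2.

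**Figure D3:**
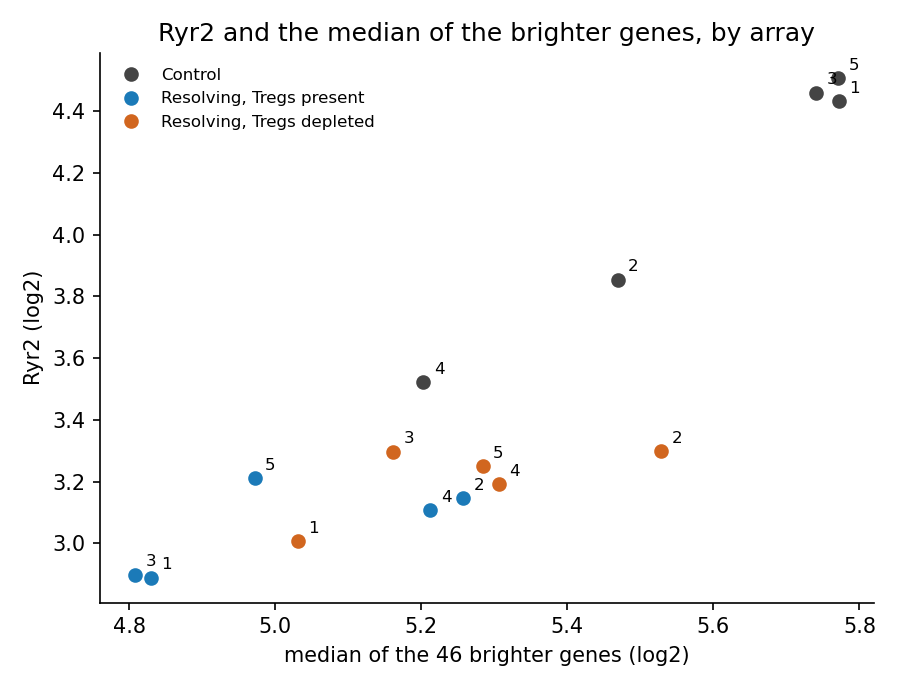
Ryr2 log2 value (vertical axis) against the median log2 value of the 46 tested genes with a mean above 4 (horizontal axis), 1 point per array, numbered by replicate and coloured by group. Control replicate 4 is lowest of its group on both axes, at 3.52 and 5.20, and still lies above all resolving arrays on the Ryr2 axis.

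Centring the arrays on the median of those 46 genes left a Ryr2 difference from control of -0.53 with Tregs present and -0.62 with Tregs depleted. This centring moves every gene's change by 0.58 and 0.33 log2 units, respectively. The SD of Ryr2 became 0.20, 0.15 and 0.13 for control, Tregs present and Tregs depleted, and the group means became 3.85, 3.32 and 3.24. The lowest control array still stood 0.08 above the highest resolving array. After quantile normalization over the measured rows the differences were -0.84 and -0.74, and the gap was 0.17. The resolving groups kept their order after quantile normalization, with a difference of 0.096. The centring subtracts 0.25 from every gene's difference between them, which turns the sign of any positive difference smaller than that.

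**Figure D4:**
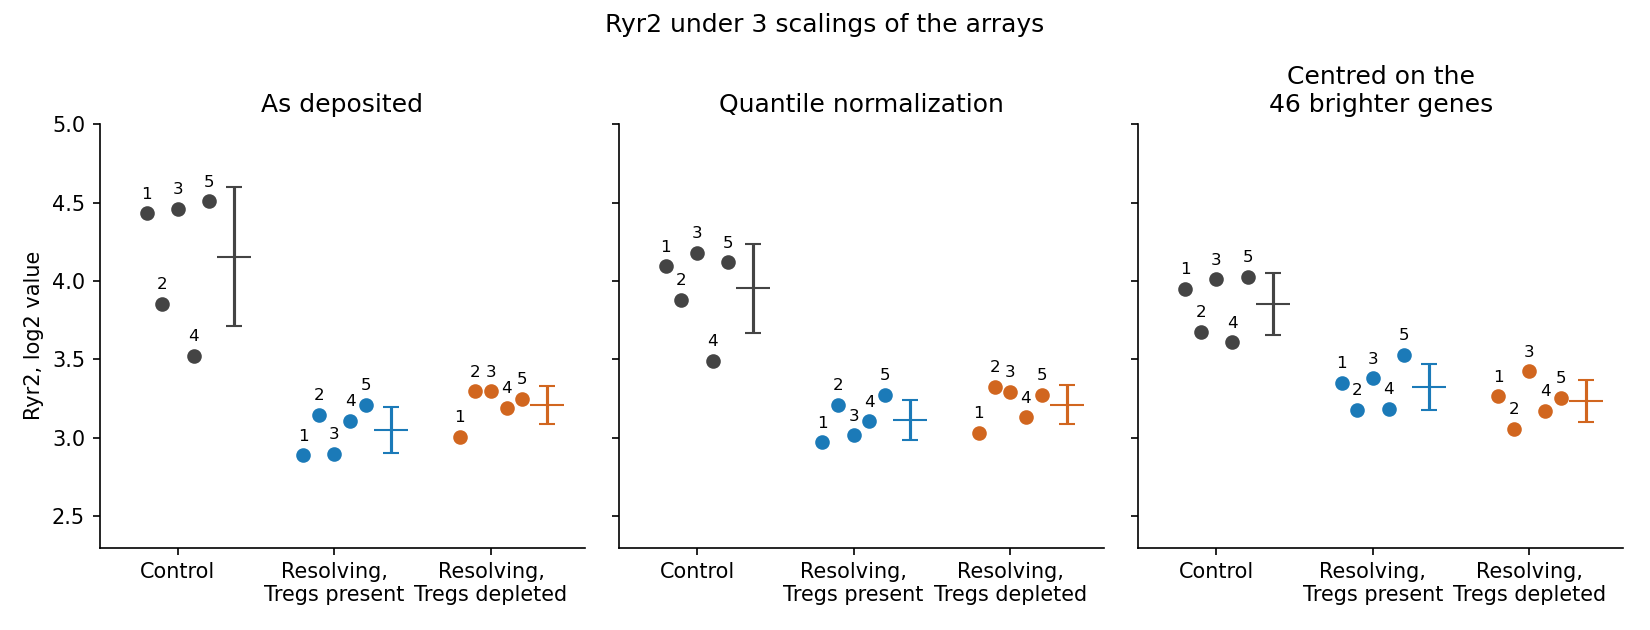
Ryr2 log2 value (vertical axis) in the 15 arrays as deposited, after quantile normalization and after centring on the median of the 46 brighter genes, with points numbered by replicate and bars for the group mean ± SD (n = 5). Controls stay above all resolving arrays in each panel, by 0.23, 0.17 and 0.08.

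Lcp2, which encodes an adaptor protein of leukocyte receptor signalling, was high in 2 arrays. It stood at 6.61 in control replicate 4, the lowest control for Ryr2, and at 7.07 in Treg-depleted replicate 5, where Ryr2 was the median of its group. Without these arrays Ryr2 was 1.26 log2 units below control with Tregs present and 1.12 below it with Tregs depleted. Leaving out the lowest control array widens the difference by arithmetic, so nothing is read from these values, and the part of the high Lcp2 arrays in it was not tested. Nckap1l, the other measured leukocyte gene, lay between 2.09 and 2.64 in all arrays, near the array medians.

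None of the other genes of calcium release was measured. Of 50 listed genes of calcium release and handling, among them the other ryanodine receptors (Ryr1 and Ryr3), the inositol trisphosphate receptors (Itpr1, Itpr2 and Itpr3), the calcium pumps that refill the store (Atp2a2 and Atp2a3) and the store-operated entry proteins (Stim1 and Orai1), 0 had a measured value. The same was true of 24 genes of surfactant secretion, among them the purinergic receptor gene P2ry2 and the vesicle fusion gene Syt7. Whether Ryr2 differed alone or with its pathway is therefore not analysed here.

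Genes with a profile like that of Ryr2 were ranked by the root-mean-square difference between 2 profiles over the 15 arrays, each centred on its own mean, in log2 units. A flat profile would lie 0.55 from Ryr2, and the median of the 172 other tested genes lay at 0.55. The nearest were the clone genes E230008O15Rik at 0.25 and 4930466F19Rik at 0.25, followed by the predicted pseudogene Gm5859 at 0.29, Gm19439 at 0.30 and Gm20066 at 0.30. Nothing is known here of what these transcripts do. Of these 5, leaving out single arrays kept 3 to 5, and quantile normalization and ranking by Pearson correlation each kept 3.

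The nearest transcript, E230008O15Rik, is measured by the row AK045831. It stood at 6.28 ± 0.26 in control, 5.29 ± 0.39 with Tregs present and 5.61 ± 0.32 with Tregs depleted (SD, n = 5 each). Its highest resolving array, at 5.95, exceeded its lowest control array by less than 0.01, so that, unlike Ryr2, its control and resolving arrays met. The clone 4930466F19Rik stood at 4.96 ± 0.28, 3.95 ± 0.19 and 3.97 ± 0.34 in the same order, with all controls above all resolving arrays. With Tregs present against control, E230008O15Rik and 4930466F19Rik differed by -0.98 and -1.02 as deposited. These differences were -0.53 and -0.48 after quantile normalization, and -0.41 and -0.44 after centring on the brighter genes. Unlike Ryr2, both transcripts belong to the 46 brighter genes, so they contribute to the median used for that centring. Control replicate 4 was the lowest control array in all 5 of these genes, as it was for Ryr2. The 5 were chosen for likeness over these same arrays, and control replicate 4 was also the lowest control in 34.7% of all tested genes, more often than any other control array.

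Among genes that are neither clones, predicted genes nor expressed segments, Lpin2 was the nearest, at 0.38. It encodes lipin 2, a phosphatidate phosphatase of glycerolipid synthesis, and its control, Treg-present and Treg-depleted means were 9.18, 7.91 and 8.22. LOC100505155, an uncharacterised locus at a distance of 0.40, was lower than control by 0.44 and 0.27, but its differences turned to 0.065 and 0.10 after quantile normalization and to 0.13 and 0.061 after centring on the brighter genes. Klf11, which encodes a Krüppel-like transcription factor, lay at 0.40 and was lower by 0.52 and 0.53, but its difference with Tregs present turned to 0.056 after the same centring.

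The mirror image of Ryr2 was nearest to Clu, which encodes the secreted chaperone clusterin. Its profile lay 0.21 from the inverted Ryr2 profile, closer than any gene lay to Ryr2 itself. Clu stood at 7.63 ± 0.21 in control, 8.78 ± 0.12 with Tregs present and 8.75 ± 0.22 with Tregs depleted (SD, n = 5 each). The predicted gene Gm20559 was the next, at 0.33. These distances describe 15 arrays that share one normalization and 3 group levels, and they say nothing of shared control.

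**Figure D5:**
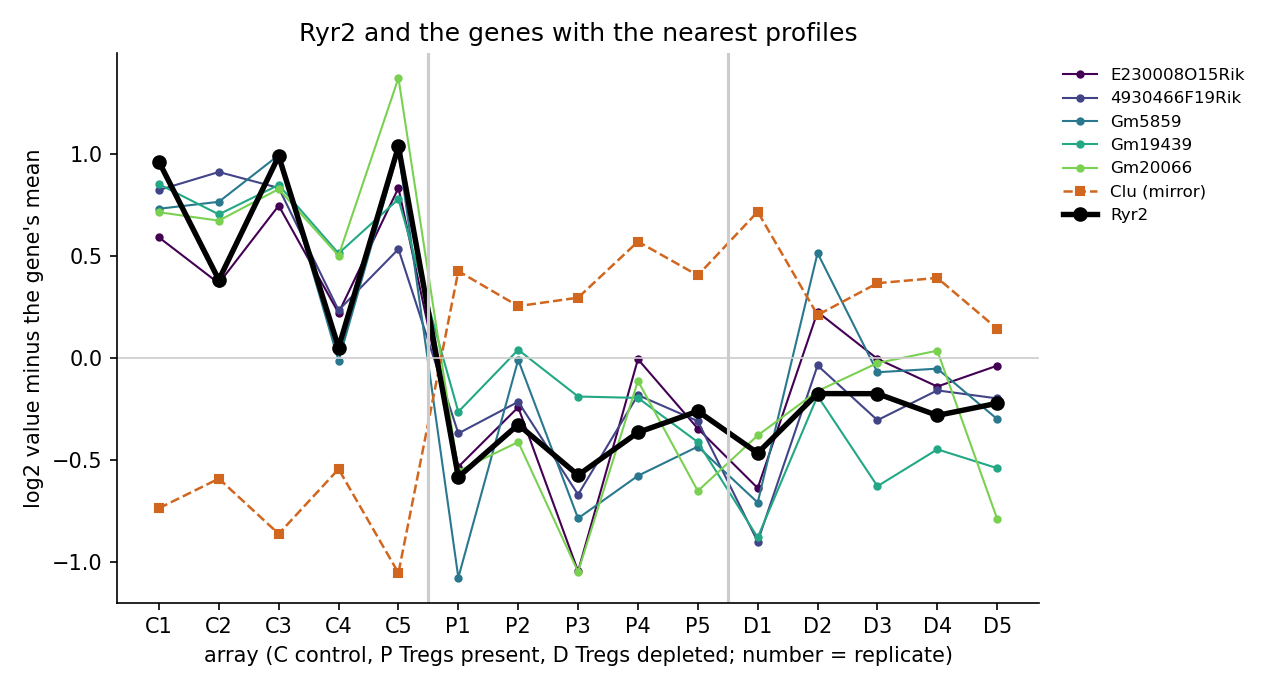
Log2 value minus the gene's own mean (vertical axis) in the 15 arrays (horizontal axis: C control, P Tregs present, D Tregs depleted, with replicate number) for Ryr2, the 5 genes nearest to it and Clu, the nearest to its mirror image. Ryr2 and its neighbours dip at control replicate 4 and are on average lower in resolving than in control arrays, while Clu is higher.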

How the data were processed

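AT2 cell RNA (225 ng per sample, per the labels' protocols) was hybridised to Mouse Gene 2.1 ST arrays of Affymetrix. Expression Console, RMA (background subtraction, normalization between arrays and probe summary) and Partek were used, per the submitters' processing notes. Tool versions and the genome build: not given in the sources used here. The authors deposited log2 values, which were used as they stand. In each column only the first 324 of 31351 rows vary like measurements. The other 31027 lie on a straight line by row number, to within 4.4e-13, and were left out.

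The row with the highest mean stood for a symbol, and the 173 genes that exceeded an array's median on 5 or more of 15 arrays were tested. Ryr2 exceeded it in all 15. One model with 3 group means was fitted with limma 3.58.1 in R 4.3.3 (lmFit, eBayes with trend). It was tested on simulated data in which each gene had the same spread in all 3 groups. A spread that is wider in control, as for Ryr2, was not simulated. Calls were made at an adjusted p under 0.05 (Benjamini-Hochberg), with 95% intervals. The number of arrays limits the precision.

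The gene, the lists and the tests were chosen with earlier results of these data known. Named genes are the 5 nearest to Ryr2, the 3 nearest with an established or locus name (the expressed sequence AA666905 counted as an expressed segment), the 2 nearest to its mirror image and measured list members. The other genes whose controls all stood above resolving arrays, and Lcp2 and Nckap1l as measured markers, were named in addition. Alternatives were other scalings, no filter, leaving out arrays, a replicate block, 2-group fits, no moderation, group medians and the second deposited table of the same log2 values. No slide or scan date was given, so batches were not examined.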

Additional observations from a re-analysis of the deposited data

Results flagged for a closer look

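Among 39 sets of 5 arrays (Ryr2, the 10 genes named for their likeness to it, Lcp2 and the array median, each in 3 groups), 3 held an array set well apart from the rest of its group. Chance alone marks about 1 in 20 sets, here 1.95. Lcp2 came from lists chosen with earlier results of these data known, so 3 is not weighed against 1.95. Lcp2 was 6.61 in control replicate 4 against 2.78 to 3.81 in the other controls, and 7.07 in Treg-depleted replicate 5 against 2.75 to 3.64 in the rest of that group. Gm5859 was 5.66 in control replicate 4 against 6.41 to 6.69 in the other controls. None of the 3 groups held such an array for Ryr2.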

How the results depend on the processing

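Ryr2 was lower than control in all 22 alternatives run for each resolving group, with differences from -1.33 to -0.53 with Tregs present and from -1.18 to -0.62 with Tregs depleted. Most of these runs could not have turned the sign, because every control array stood above every resolving array. That holds for leaving out arrays, group medians, the replicate block and the second table. It also holds for centring on the median of the measured rows, since the array medians, from 2.25 to 2.39, differ by less than the 0.23 gap. Only quantile normalization and centring on the brighter genes could have turned the sign. Leaving out an array of the third group changed neither mean compared. Leaving out single arrays gave -1.26 to -1.02 and -1.11 to -0.86. Centring on the median of the 46 genes with a mean over 4 gave -0.53 and -0.62, turned the difference between the resolving groups to -0.088 (limma adjusted p = 0.755) and called 123 and 2 genes in place of 28 (Tregs present against control) and 0 (between the resolving groups), by construction since it moves every gene. That difference otherwise lay between 0.10 and 0.21, with adjusted p from 0.694 to 0.996 over all 24 alternatives. Reversed signs of other named genes were LOC100505155 (0.065 and 0.10 after quantile normalization, 0.13 and 0.061 after centring) and Klf11 with Tregs present (0.056 after centring). Single arrays left out gave 19 to 31, 15 to 24 and 0 called genes, against 28, 19 and 0. With the number as a replicate block these counts were 25, 20 and 0, the Ryr2 differences were unchanged by construction (-1.11, -0.95 and 0.16) and the last had an adjusted p of 0.908. Equal numbers showed no pairing: residual correlations of the 15 same-numbered pairs had a median of 0.0033 (range -0.249 to 0.328), 3 of them over 0.1, and 4 of the 15 arrays correlated best with an array of their own number. The resolving values of Ryr2 lie 0.51 to 1.00 above the array medians, and no measure of background was used to show how far they stand above it.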
